A study of Mus musculus with 6 samples.

Results

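Microglia of mice that had recovered from learned helplessness were set against microglia of mice that had never become helpless, both after the chronic form of the paradigm. The members were all cells to which the authors gave the cell type Microglia in these 2 libraries, 372 from the chronic recovered and 499 from the chronic non-helpless library. Together they were 871 of the 3005 cells and of the 2721 microglia in the series. Per the labels, all mice were of the strain written as BC57BL/6, the tissue was hippocampus, and the cells sorted were live and CD45-positive. In both groups mice received 180 inescapable foot shocks of 0.3 mA, then faced an escape test of 30 trials, each lasting 24 s, and repeated that test each week for 3 weeks. The chronic non-helpless mice were those not helpless in this paradigm, and the recovered mice were those that had been helpless and later were not. The comparison asks how microglia differ between mice that passed through a helpless state and mice that did not. Each group had 1 library, and the number, age and sex of the mice behind a library are not given in the sources used here. With no spread between replicates, no test between the groups was possible. Every interval given here is a 95% interval of counting error alone.

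Microglia are the resident macrophages of the brain. They survey the tissue with motile processes, sense purines released by damaged or active cells, and clear debris and synapses through complement, Fc and lipid receptors. Their identity in the adult depends on transforming growth factor beta and on myeloid transcription factors such as PU.1 and the C/EBP family, and under lasting damage they take on a lipid-handling state with high Apoe and Lpl.

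The recovered microglia gave 1726795 UMIs (unique molecular identifiers, each standing for 1 captured transcript), with a median of 4579.5 UMIs and 2105.5 genes per cell. The non-helpless microglia gave 2131424 UMIs, with medians of 4245 and 1970. The median share of mitochondrially encoded UMIs was 1.04% in both. Both libraries carry the authors' batch number 3, and no cell barcode occurred in both. All 9 defining microglial markers were present, and their summed level was 44195 CPM (a gene's UMIs per 1000000 UMIs of the pooled microglia) in recovered and 45255 CPM in non-helpless microglia. P2ry12, the purine receptor that steers microglial processes, stood at 7397 and 7579 CPM, and Tmem119, a microglia-specific membrane protein, at 3258 and 3179 CPM. The pools as a whole thus carried the markers of their label, although some single barcodes labelled Microglia held almost none.

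The microglia of the 2 libraries were alike in most of the transcriptome and apart in a limited set of genes. Over the 6927 genes with at least 20 CPM in either pool, the median difference was 1.12-fold, and 75.4% of genes lay within 1.25-fold. At least 1.5-fold higher in recovered microglia were 280 genes, or 4.04% of those tested, and at least 1.5-fold lower were 222, or 3.2%. At 2-fold, 82 genes (1.18%) were higher and 40 (0.577%) lower. The counting interval excluded equality for 253 of the 280 and 175 of the 222. Genes higher in recovered microglia included the transcription factors Cebpa, Cebpb and Jund and the cytokine Tgfb1, whereas Apoe, Lpl and Atf3 were lower.

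**Figure D1:**
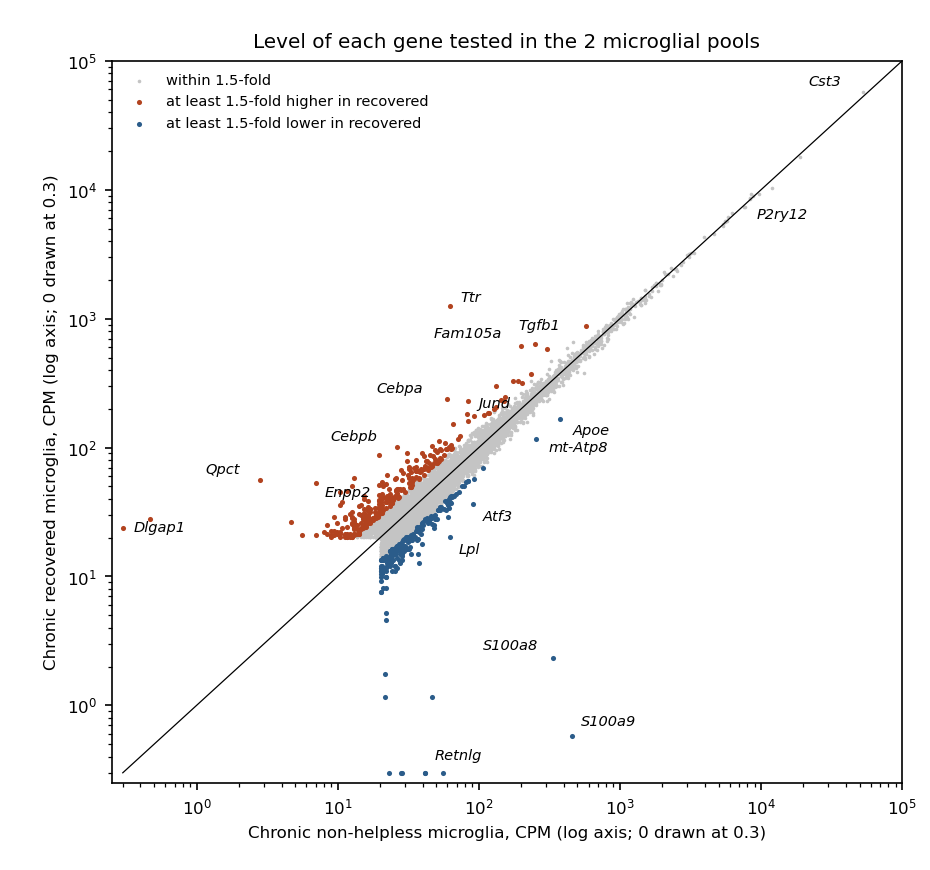
Each point is 1 of the 6927 genes tested, with its level in pooled chronic non-helpless microglia on the horizontal and in pooled chronic recovered microglia on the vertical axis, both in CPM on log axes. Most points lie on the diagonal, and 280 genes above and 222 below it are at least 1.5-fold apart.

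Several of the largest ratios rested on single barcodes. Genes were ranked by ratio where the higher pool held 50 CPM and 30 UMIs or more. Of the 15 ranked highest and the 15 ranked lowest, 3 on each side drew more than 30% of their UMIs from 1 barcode. Ttr, the thyroid hormone carrier made by choroid plexus, had 2171 UMIs in recovered and 133 in non-helpless microglia, a 20.1-fold difference (16.9 to 24.2). One recovered barcode supplied 2122 of them, and it held 1 UMI of the microglial markers among its 6026 UMIs. Without the highest barcode of each library, Ttr stood at 28.5 and 12.2 CPM. Enpp2, which encodes the lysophospholipase D autotaxin and is also made by choroid plexus, had 92 and 15 UMIs, 86 of them in that same recovered barcode. Of the 8 choroid plexus and ependymal markers, 4 were at 0 in each pool, Kcnj13 among them. In the 23 recovered barcodes of other cell types that carried under 0.5% microglial marker UMIs, Ttr had 2558 UMIs, and in the 17 such non-helpless barcodes it had 0.

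On the other side, the neutrophil genes S100a9 and S100a8, subunits of calprotectin, had 1 and 4 UMIs in recovered and 981 and 721 in non-helpless microglia. A single non-helpless barcode held 964 and 712 of these, together with 764 microglial marker UMIs among 24381 in all. Retnlg, another neutrophil gene, had 0 UMIs against 119, at least 32.1-fold lower with 3 counts as the floor, and 118 of the 119 lay in that barcode. Ccnb1ip1, which encodes a ubiquitin ligase known from meiotic crossing over, had 105 against 48 UMIs, and 46 of the 105 came from 1 recovered barcode. The remaining 12 highest genes drew at most 5.15% of their UMIs from 1 barcode, and the remaining 12 lowest at most 22.8%. With the highest barcode of each gene left out, 269 of the 280 higher and 211 of the 222 lower genes were still at least 1.5-fold apart. Neutrophil markers summed to 261 CPM in recovered and 1301 CPM in non-helpless microglia, and 5 and 0 of their 11 markers were at 0. Csf3r alone supplied 441 of the 450 recovered and 637 of the 2774 non-helpless neutrophil marker UMIs. One non-helpless barcode held 2096 of the 2774, while no recovered barcode held more than 8. T cell markers summed to 5.21 and 2.82 CPM and B cell markers to 342 and 388 CPM. Ighm supplied 453 of the 590 and 497 of the 828 B cell marker UMIs.

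**Figure D2:**
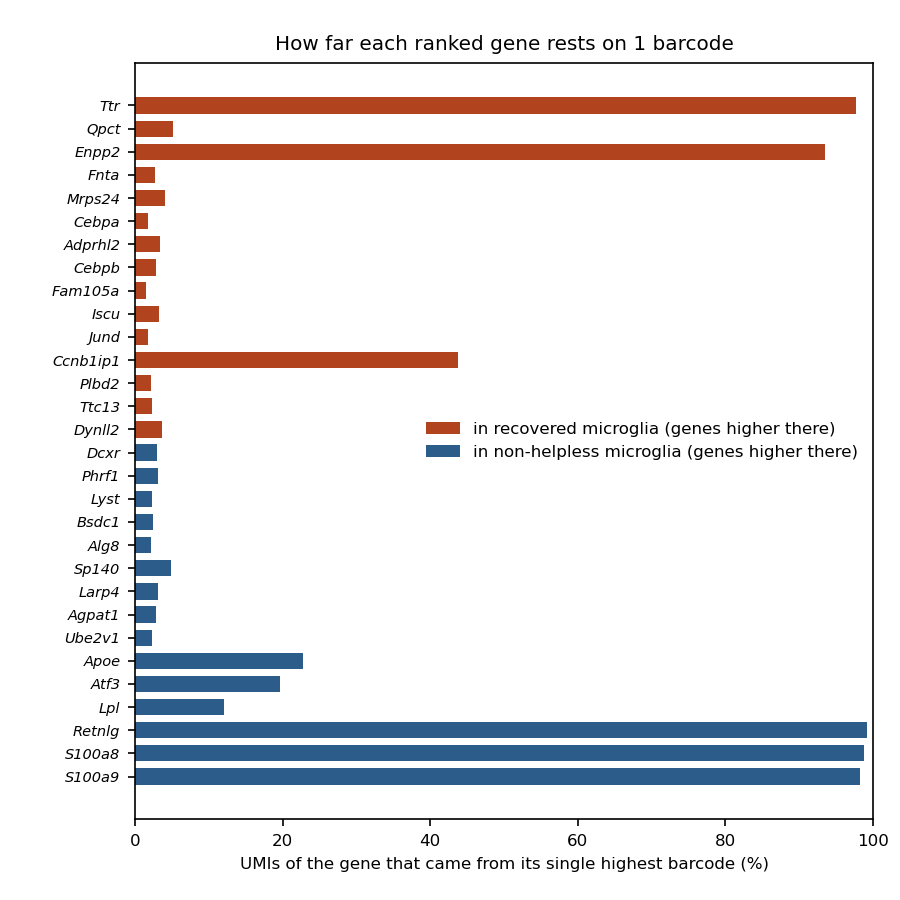
For each of the 15 highest and 15 lowest ranked genes, the bar gives the percentage of the gene's UMIs, in the pool where it was higher, that came from its single highest barcode. Ttr, Enpp2, Ccnb1ip1, Retnlg, S100a8 and S100a9 exceed 30%, and the other genes drawn in red, Cebpa and Fam105a among them, reach at most 5.15%.

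Transcription factors of the myeloid lineage and of AP-1 were among the genes with the highest ratio. Cebpa encodes C/EBP alpha, which sets up the myeloid programme in progenitors and is kept on in microglia. It had 411 UMIs in recovered and 127 in non-helpless microglia, or 238 and 59.6 CPM, a 3.99-fold difference (3.27 to 4.91). At least 1 Cebpa UMI was seen in 57.8% of recovered and 21.4% of non-helpless microglia. After each cell was thinned to 1000 UMIs these shares were 21.1% and 5.05%, with 7 recovered and 4 non-helpless cells of lower depth left out. Cebpb, the family member induced by inflammatory signals, had 173 and 56 UMIs and was 3.81-fold higher (2.81 to 5.25). The highest single barcode gave 7 of the Cebpa and 5 of the Cebpb UMIs, so many cells contributed. Cebpd and Cebpg, further C/EBP genes, differed little between the pools. Cebpd, an acute-phase member, was at 306 and 322 CPM, and Cebpg, a dimer partner without an activation domain, at 54.4 and 47.4 CPM. Cebpz, which shares the symbol's stem but is also named Cbf and is not counted here as a family member, was at 206 and 192 CPM. Jund, the AP-1 subunit that is expressed in resting cells, had 394 and 179 UMIs and was 2.72-fold higher (2.27 to 3.26), while its relatives Jun (1467 and 1658 CPM) and Junb (1201 and 1160 CPM) were within 1.25-fold.

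Tgfb1, the transforming growth factor beta ligand that microglia both make and depend on, stood out among the cytokines. It had 1096 UMIs in recovered and 532 in non-helpless microglia, or 635 and 250 CPM, and was 2.54-fold higher (2.29 to 2.83). A Tgfb1 UMI was seen in 89.5% and 60.3% of cells, and after thinning in 47.4% and 20.6%. Of the 18 measured genes of TGF-beta signalling, Tgfb1 was the only one 1.5-fold apart, and the list's median log2 ratio was -0.085 beside -0.037 over all genes tested. Its receptors Tgfbr1 (1034 and 1097 CPM) and Tgfbr2 (515 and 477 CPM) and the signal transducer Smad3 (29.5 and 31.9 CPM) were near equal. Tgfb1 was also the only 1 of 10 growth factor and resolution genes that far apart, and that list's median log2 ratio was -0.018.

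Among 26 cytokine and growth factor receptors, 3 were at least 1.5-fold higher and none lower, beside 4.04% and 3.2% over all genes tested. Ifngr2, the signalling chain of the interferon gamma receptor, had 515 and 282 UMIs and was 2.25-fold higher (1.95 to 2.62), while the ligand-binding chain Ifngr1 stood at 1365 and 1396 CPM. Il17ra, the shared chain of the interleukin 17 receptors, had 188 and 122 UMIs and was 1.90-fold higher (1.51 to 2.41). Il6ra, the interleukin 6 receptor, had 570 and 375 UMIs and was 1.88-fold higher (1.64 to 2.14). The list's median log2 ratio was -0.055. Relb, a subunit of the non-canonical NF-kB pathway, had 41 and 23 UMIs, or 23.7 and 10.8 CPM, with an interval of the ratio from 1.29 to 3.84. It was the only 1 of 21 NF-kB genes past 1.5-fold. Nfkb1 was at 110.0 and 122 CPM, Rela at 97.3 and 107 CPM, and the feedback inhibitor Nfkbia at 284 and 265 CPM.

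The 5' ends of 3 of these genes are shown because the 3 were higher together and their start regions hold GC boxes, the short elements bound by Sp1-type factors. Each sequence is the 250 bases before the start in RefSeq's GRCm38.p6 annotation, the mm10 assembly, on the gene's strand. The genes, all protein coding, lie at chr2:167688915-167690432 (Cebpb), chr7:25687002-25705077 (Tgfb1) and chr16:91547059-91564007 (Ifngr2). The windows shown lie at chr2:167688665-167688914, chr7:25686752-25687001 and chr16:91546809-91547058, all on the plus strand, and capitals mark GGGCGG or its reverse complement, with overlapping matches run together.
Cebpb: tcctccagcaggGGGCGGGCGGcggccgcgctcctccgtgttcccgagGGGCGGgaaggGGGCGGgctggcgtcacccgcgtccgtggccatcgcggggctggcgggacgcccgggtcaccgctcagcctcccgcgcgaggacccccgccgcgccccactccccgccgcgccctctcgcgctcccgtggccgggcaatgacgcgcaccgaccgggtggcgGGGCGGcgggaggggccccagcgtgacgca
Tgfb1: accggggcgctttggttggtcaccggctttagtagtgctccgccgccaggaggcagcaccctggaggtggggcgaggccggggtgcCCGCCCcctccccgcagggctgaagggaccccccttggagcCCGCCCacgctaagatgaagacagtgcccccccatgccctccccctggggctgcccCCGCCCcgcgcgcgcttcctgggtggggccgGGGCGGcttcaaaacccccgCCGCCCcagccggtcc
Ifngr2: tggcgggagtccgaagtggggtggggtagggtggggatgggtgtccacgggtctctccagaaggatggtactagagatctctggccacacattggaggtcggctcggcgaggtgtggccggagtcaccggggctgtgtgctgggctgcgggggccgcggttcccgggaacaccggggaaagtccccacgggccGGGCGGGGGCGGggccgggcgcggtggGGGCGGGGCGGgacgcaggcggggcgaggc
The 3 windows held 5, 5 and 4 matches, the nearest 25, 11 and 20 bases from the start. Their GC content was 81.6%, 75.2% and 74.0%. GC boxes are common in such regions, since 60.5% of the 5646 tested genes found in the RefSeq table and 32.9% of its 27025 genes had at least 1 match in the same window. The same 250 bases before Cebpa (66.4% GC) and Jund (47.6% GC) held 0 matches, and those before Atf3, which was lower in recovered microglia, held 5. Only 223 of the 280 higher genes (79.6%) were found in the table, so the share of matches over those genes is void as a comparison and is not given. Of the 222 lower genes, 178 (80.2%) were found, nearly the same coverage, and 59.6% of these had a match. That share is no firmer as a comparison, and no contrast between higher and lower genes was drawn.

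Further ranked genes that were higher in recovered microglia were spread over many barcodes. Fam105a, a relative of the deubiquitinase gene Otulin, had 1055 and 424 UMIs and was 3.07-fold higher (2.74 to 3.45), with UMIs in 89.2% and 54.7% of cells. Fnta, the shared subunit of the enzymes that attach prenyl groups to small GTPases, had 151 and 42 UMIs and was 4.44-fold higher (3.13 to 6.41). Mrps24, a protein of the mitochondrial ribosome, had 100 and 28 UMIs. Adprhl2, a hydrolase that removes ADP-ribose from proteins, had 87 and 27. Iscu, the scaffold of iron-sulfur cluster assembly, had 156 and 66 UMIs. Plbd2, a lysosomal phospholipase-like protein, had 94 and 44, Ttc13 88 and 42, and Dynll2, a dynein light chain, 136 and 66. The ratios of these 6 genes ran from 2.54 to 4.41, and in each case the higher level was in recovered microglia.

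A pair of genes was nearly absent from non-helpless microglia. Qpct, a glutaminyl cyclase that modifies chemokine N-termini, had 97 UMIs in 15.9% of recovered microglia and 6 UMIs in 1.00% of non-helpless microglia, a 20.0-fold difference (8.84 to 55.7). Dlgap1, a postsynaptic scaffold gene, had 41 UMIs in 8.60% of recovered and 0 in non-helpless microglia, at least 16.9-fold higher with 3 counts as the floor. Across the other microglia of the series both genes were either near 0 or much higher than here. Qpct stood at 1.81 CPM in non-shocked batch 3 and 5.16 CPM in acute helpless pools, but at 191 CPM in non-recovered, 304 CPM in non-shocked batch 2 and 445 CPM in acute non-helpless microglia. Dlgap1 had 0 UMIs in the first 2 of these and 135, 292 and 201 CPM in the others. Recovered microglia lay between those levels for both genes. Both lie on chromosome 17 of GRCm38.p6, and whether the mice of the libraries differed in genotype there was not tested.

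Genes of stress hormones and protein folding gave a mixed picture. Of 21 glucocorticoid-response genes, 3 were at least 1.5-fold higher and none lower, beside 4.04% higher and 3.2% lower over all genes tested, with a median log2 ratio of 0.058. Zfp36l2, which speeds the decay of AU-rich mRNAs, had 1002 and 650 UMIs and was 1.90-fold higher (1.72 to 2.10). Fkbp4, a co-chaperone that carries the glucocorticoid receptor to the nucleus, had 196 and 111 UMIs and was 2.18-fold higher (1.72 to 2.78), and Cebpb was the third. Classical hormone-induced genes were not among them. Fkbp5, the co-chaperone that damps the receptor, stood at 19.1 and 27.7 CPM, 1.45-fold lower (0.93 to 2.29). Tsc22d3, the glucocorticoid-induced leucine zipper, stood at 169 and 182 CPM, Per1 at 18.0 and 20.6 CPM, Sgk1 at 710.0 and 721 CPM, and the receptor gene Nr3c1 at 137 and 121 CPM.

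Among 29 heat shock and chaperone genes, Dnajc3, an endoplasmic reticulum co-chaperone, was 1.90-fold higher (277 and 180 UMIs; 160.4 and 84.5 CPM) and the inducible Hspa1b 1.67-fold higher (73 and 54 UMIs; 1.16 to 2.42). Hspa1a, its neighbour with a nearly identical sequence, stood at 195 and 179 CPM, and reads of the 2 copies may have been shared between them. Of 26 genes of the unfolded protein and integrated stress response, Creld2 (1.51-fold, 1.16 to 1.97) and Ern1 (1.63-fold, 0.999 to 2.69) were higher. Ern1 encodes the sensor IRE1. No member of either list was lower, beside 4.04% higher and 3.2% lower over all genes tested.

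Immediate early genes, which respond within minutes to stimulation and to tissue dissociation, were near equal. Of 21 measured, Jund was at least 1.5-fold higher and Atf3 lower, beside 4.04% and 3.2% over all genes tested. The list's median log2 ratio was -0.063. Fos stood at 398 and 435 CPM, Egr1 at 110.0 and 115 CPM and Fosb at 44.0 and 45.0 CPM. Atf3, a stress-induced repressor of inflammatory genes, had 63 UMIs in recovered and 193 in non-helpless microglia, or 36.5 and 90.6 CPM, and was 2.48-fold lower (1.86 to 3.35).

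Genes of lipid handling were among those lower in recovered microglia. Of 17 measured genes of lipid and cholesterol handling, 4 were at least 1.5-fold lower, Apoe, Lpl and Srebf1 among them, and none was higher, beside 3.2% lower and 4.04% higher over all genes tested. The median log2 ratio was -0.19. Apoe, the lipid carrier of brain lipoproteins, had 289 and 802 UMIs, or 167 and 376 CPM, and was 2.25-fold lower (1.96 to 2.58). One non-helpless barcode gave 183 of the 802, and without the highest barcode of each library Apoe stood at 149 and 291 CPM. Lpl, which hydrolyses lipoprotein triglycerides, had 35 and 133 UMIs and was 3.08-fold lower (2.11 to 4.61). Srebf1, the regulator of fatty acid synthesis, had 35 and 75 UMIs and was 1.74-fold lower (1.15 to 2.67). Abca1, the cholesterol exporter, stood at 229 and 304 CPM, and Abcg1 at 51.0 and 58.2 CPM.

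Of 20 measured genes of disease-associated microglia, Apoe, Lpl, Lgals3 and Ank were at least 1.5-fold lower and none was higher, beside 3.2% lower over all genes tested. Lgals3, the damage-induced lectin galectin-3, had 3 and 46 UMIs, a 12.4-fold difference (3.99 to 62.4), in 0.538% and 1.20% of cells. After thinning to 1000 UMIs per cell its log2 ratio was 0.024. Ank, a pyrophosphate transporter, had 36 and 73 UMIs and was 1.64-fold lower (1.09 to 2.52). Other genes of that state were near equal, with Trem2, the lipid receptor needed to enter it, at 2432 and 2496 CPM, and its adaptor Tyrobp at 2471 and 2316 CPM. The list's median log2 ratio was -0.037, the same as that of all genes tested. Markers of other brain macrophages moved with these genes, summing to 308 CPM in recovered and 383 CPM in non-helpless microglia, with 6 and 2 of the 9 markers at 0. Stab1 supplied 521 and 760 of those UMIs, Mrc1 8 and 27, Pf4 0 and 10, Cd163 0 and 6 and Ms4a7 0 and 4. A single non-helpless barcode held 43 UMIs of these markers, while no recovered barcode held more than 7. Their part in the lower levels of Apoe, Lpl and Lgals3 was not tested.

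Apoe and Lpl were much closer, and Srebf1 was not, within the 1 cell cluster that both libraries shared. The deposited clusters put 326 recovered and 228 non-helpless microglia in cluster 2, the only cluster with at least 20 microglia of both. The other 46 recovered microglia were in cluster 6, and the other non-helpless microglia were in clusters 1, 3 and 5, with 95, 80 and 96 cells. Clusters held by 1 library cannot be told apart from that library. Cluster 6 of the recovered and cluster 3 of the non-helpless library had low medians of 2072.5 and 1988 UMIs and of 1.19% and 0.841% ribosomal protein UMIs. Apoe stood at 1145 CPM in non-helpless cluster 5, where 39.6% of cells had a UMI, at 508 CPM in cluster 3, 208 CPM in cluster 1 and 187 CPM in cluster 2. In recovered microglia it stood at 154 CPM in cluster 2 and 382 CPM in cluster 6. Lpl reached 253 CPM in non-helpless cluster 5 and was at 26.0 CPM in non-helpless and 20.3 CPM in recovered cluster 2. Within cluster 2, Apoe was 1.21-fold lower (1.00 to 1.47), Lpl 1.28-fold lower (0.74 to 2.19) and Atf3 1.53-fold lower (1.03 to 2.29). Srebf1 was 1.92-fold lower there (1.16 to 3.19). Of 19 disease-associated genes measured in cluster 2, 0 were 1.5-fold apart.

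The leading higher genes had similar ratios within the shared cluster. Cebpa was 4.36-fold higher there (3.30 to 5.87), Cebpb 3.52-fold (2.37 to 5.38), Fam105a 3.43-fold (2.93 to 4.03), Jund 2.94-fold (2.31 to 3.79), Tgfb1 2.57-fold (2.24 to 2.96) and Ifngr2 2.33-fold (1.92 to 2.85). Non-helpless Tgfb1 ranged only from 193 to 293 CPM over its 4 clusters, below the 519 CPM of recovered cluster 6 and the 642 CPM of recovered cluster 2. Non-helpless Cebpa ranged from 54.9 to 67.0 CPM against 215 and 239 CPM. Of the 280 higher genes, 236 were at least 1.5-fold higher within cluster 2, and of the 222 lower genes 129 were at least 1.5-fold lower there. Within cluster 2 itself, 446 of 6820 genes (6.54%) were higher and 224 (3.28%) lower.

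**Figure D3:**
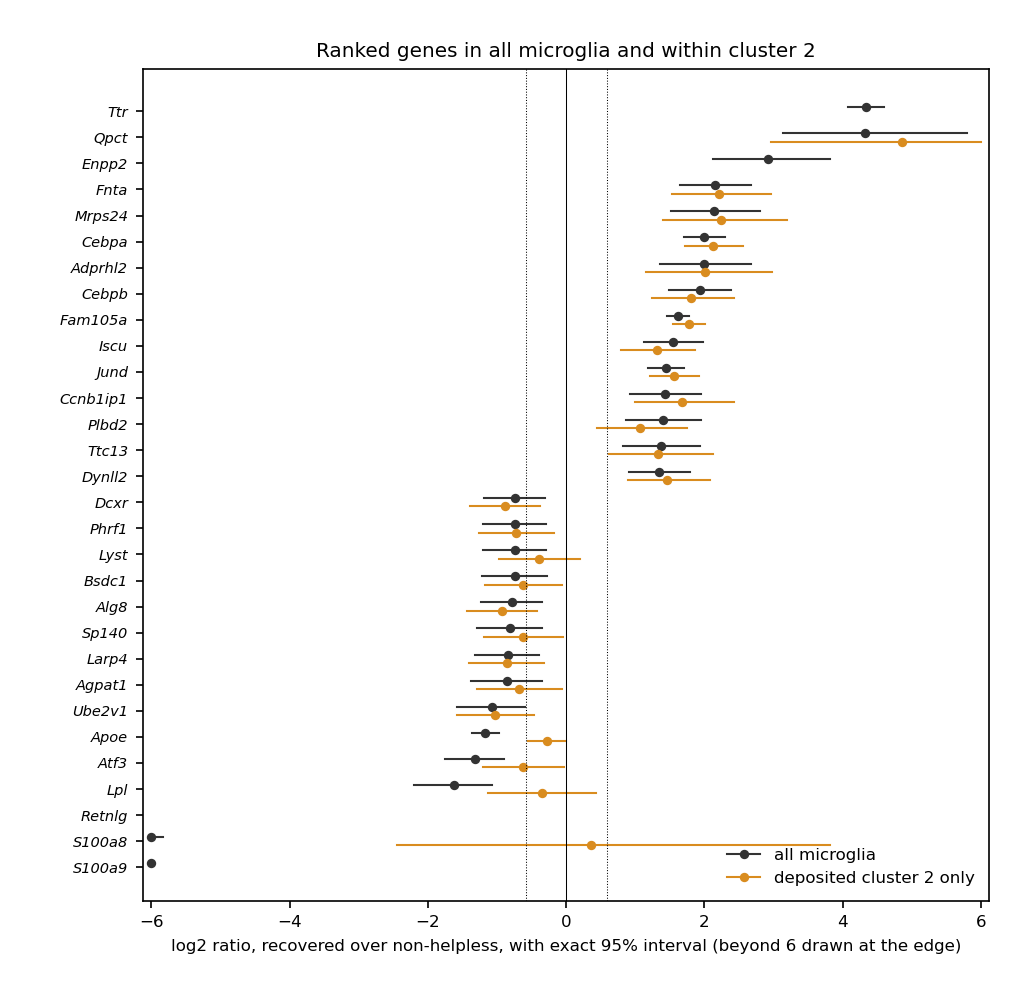
The log2 ratio of recovered over non-helpless microglia, with its 95% counting interval, is drawn for the 15 highest and 15 lowest ranked genes over all microglia (dark) and over deposited cluster 2 alone (orange), with dotted lines at 1.5-fold and no point where a pool had 0 UMIs. Cebpa, Cebpb, Jund and Fam105a have nearly the same ratio in both, and Apoe and Lpl move inside the dotted lines in cluster 2.

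Among cytokines and chemokines, the Ccl genes named here rested on few cells. Of 11 measured, Tgfb1, Ccl2 and Ccl5 were at least 1.5-fold higher and Ccl3 lower, beside 4.04% and 3.2% over all genes tested. Ccl2, the monocyte-attracting chemokine, had 80 and 25 UMIs, but 61 of the 80 came from 1 recovered barcode, and without the highest barcode of each library it stood at 11.0 and 9.40 CPM. Ccl5, a T cell-attracting chemokine, had 48 UMIs and 1 UMI (59.2-fold, 10.1 to 2388), 42 of them in 1 barcode. Ccl3, a macrophage inflammatory protein, had 73 and 143 UMIs and was 1.59-fold lower (1.19 to 2.13). One non-helpless barcode held 94 of these, and without the highest barcode of each library the direction turned, to a log2 ratio of 0.15. Ccl4, a related chemokine, stood at 118 and 125 CPM, but 68 of its 203 recovered and 178 of its 267 non-helpless UMIs came from 1 barcode each. Within deposited cluster 2 Ccl4 stood at 125 and 27.9 CPM, 4.48-fold higher in recovered microglia (3.02 to 6.85). Il1a stood at 88.0 and 77.4 CPM. Over all microglia, Tgfb1 was the only member past 1.5-fold that was spread over many cells.

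Interferon-response genes had a median log2 ratio of 0.13 over 17 measured members, beside -0.037 over all genes tested. At least 1.5-fold higher were 3 and lower none, beside 4.04% and 3.2% over all genes tested. Rtp4, an interferon-induced chaperone of receptors, had 37 and 18 UMIs (2.54-fold, 1.41 to 4.73), Sp100, a nuclear body protein, 35 and 25 (1.73-fold, 1.01 to 3.01), and Phf11d 64 and 52 (1.52-fold, 1.04 to 2.23). All 3 higher members had few UMIs, and within cluster 2 the list's median was 0.019.

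Antigen presentation showed no member 1.5-fold apart over all microglia, in 21 class I and 8 class II genes with median log2 ratios of 0.085 and 0.042. The class I heavy chains H2-D1 (654 and 466 CPM; 1.40-fold higher, 1.29 to 1.53) and H2-K1 (480.1 and 369 CPM; 1.30-fold higher, 1.18 to 1.44) were the nearest to it, and their light chain B2m stood at 879 and 829 CPM. Cd74, the class II invariant chain, stood at 93.2 and 92.0 CPM, but 73 of its 161 recovered and 96 of its 196 non-helpless UMIs came from 1 barcode each, with 0 and 2 microglial marker UMIs. Without these barcodes Cd74 stood at 51.0 and 47.0 CPM, and within cluster 2 it was 1.58-fold higher in recovered microglia (1.03 to 2.46).

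Genes of core microglial functions were near equal in both pools. No gene of the homeostatic list (30 measured), complement and Fc receptors (15), lysosome and phagocytosis (39), Toll-like receptor signalling (29), actin and motility (35), glycolysis and hypoxia (22), nuclear oxidative phosphorylation (56) or cytosolic ribosomal proteins (81) was 1.5-fold apart, and their median log2 ratios were -0.049, 0.0062, -0.050, -0.075, 0.0081, -0.092, 0.14 and 0.066 in that order. Cx3cr1, the fractalkine receptor through which neurons signal to microglia, stood at 5210 and 5379 CPM, and Csf1r, the growth factor receptor on which microglia depend for survival, at 7320 and 7713 CPM. The complement genes C1qa, C1qb and C1qc, which tag synapses, stood at 9029 and 8713, 9281 and 8518, and 8696 and 8309 CPM. Nuclear-retained long non-coding RNAs had the lowest median of all lists, at -0.29 over 7 measured, with Malat1 at 10374 and 12063 CPM. Within cluster 2 that list's median was -0.0014, and Malat1 stood at 9380 and 9389 CPM.

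The remaining lists had 1 or 2 members past 1.5-fold, beside 4.04% higher and 3.2% lower over all genes tested. Of 10 measured proliferation genes, the replication helicase subunits Mcm6 (36 and 28 UMIs) and Mcm7 (47 and 36 UMIs) showed ratios of 1.59 (0.94 to 2.70) and 1.61 (1.02 to 2.56), and 10 of the 36 Mcm6 UMIs came from 1 barcode. The direction of Mcm6 turned after thinning to 1000 UMIs per cell, to a log2 ratio of -0.56. Without barcodes that held 2 UMIs of other immune markers or under 0.5% microglial marker UMIs, the log2 ratios of Mcm6 and Mcm7 were -0.18 and -0.44. The list had a median log2 ratio of 0.28, the highest of the 28 lists, but of 0.080 within cluster 2. Of 13 purinergic and neurotransmitter receptor genes, the adrenergic receptor Adrb1 was 1.60-fold higher (57 and 44 UMIs; 1.06 to 2.43). Of 30 chromatin genes, the deacetylase Hdac2 (1.57-fold, 1.02 to 2.42) and the remodeller Chd1 (1.57-fold, 1.14 to 2.18) were higher. Of 7 clock genes, the output factor Tef was 1.65-fold lower (29 and 59 UMIs; 1.04 to 2.67). Of 13 mitochondrially encoded genes, mt-Atp8, a subunit of ATP synthase, was lower, with 201 and 545 UMIs and an interval of the ratio from 1.87 to 2.60.

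**Figure D4:**
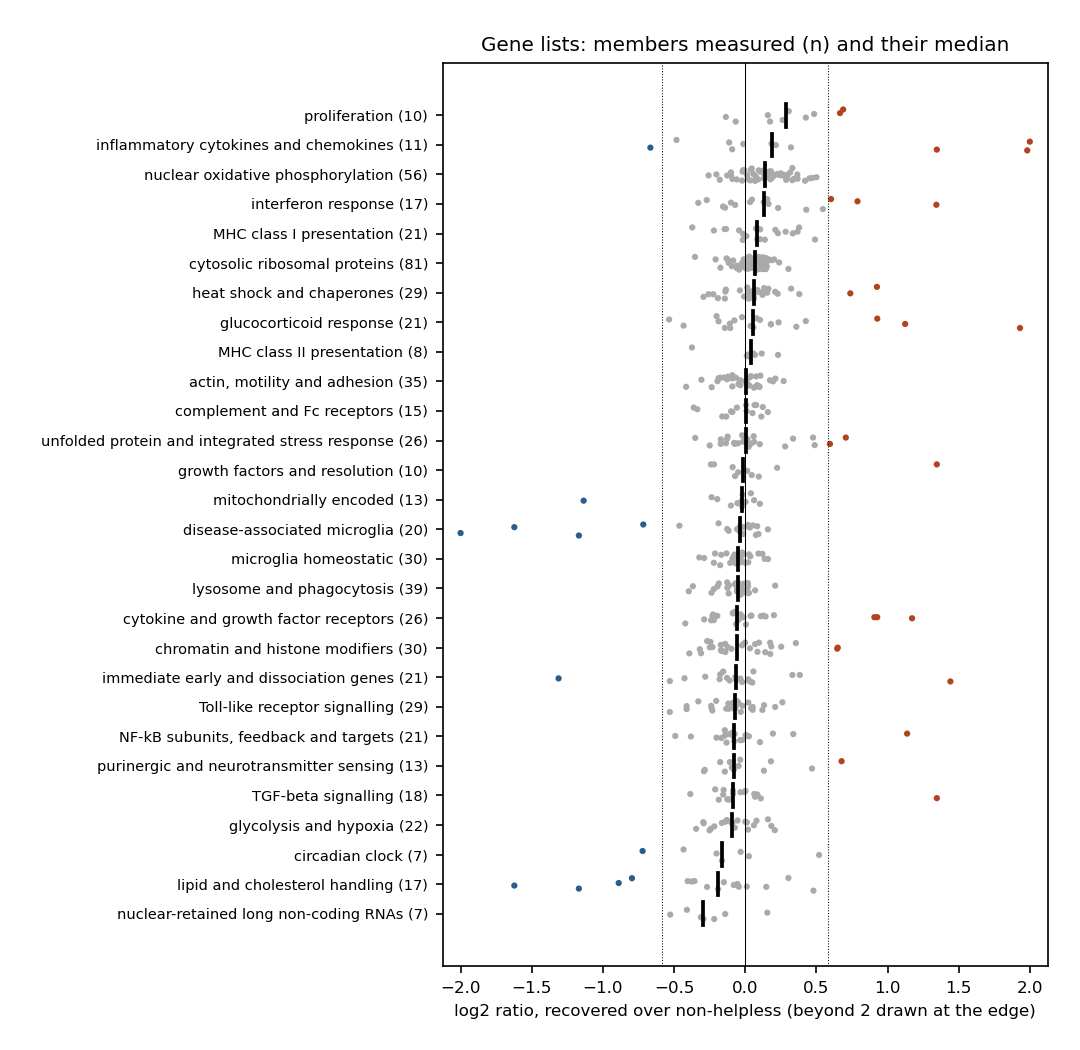
Each point is a measured member of a gene list, placed at its log2 ratio of recovered over non-helpless microglia, with the number of measured members beside the list's name, a black bar at the list's median and dotted lines at 1.5-fold. Medians run from -0.29 to 0.28 and 21 of 28 lie within 0.1 of 0, and the coloured points are the few members past 1.5-fold.

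Other genes that ranked lowest had smaller ratios and broad, low expression. Ube2v1, a partner subunit of the ubiquitin-conjugating enzyme Ubc13, had 50 and 130 UMIs and was 2.11-fold lower (1.51 to 2.98). Agpat1, an enzyme of phosphatidic acid synthesis, Larp4, a poly(A)-binding regulator of mRNA stability, Sp140, a chromatin reader of immune cells, Alg8, a glucosyltransferase of N-glycan assembly, Bsdc1, Lyst, a regulator of lysosome size, Phrf1, a ubiquitin ligase, and Dcxr, a sugar reductase, were 1.67-fold to 1.81-fold lower. Their levels in recovered microglia ran from 27.8 to 37.6 CPM, and in non-helpless microglia from 50.2 to 63.8 CPM. None of these 9 genes drew more than 4.84% of its non-helpless UMIs from 1 barcode.

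The remaining libraries show where each of the 2 pools stood, here with non-shocked microglia divided by the authors' batch. For the higher genes, the non-helpless pool was the one at the edge. Of the 15 highest ranked genes, 14 had a UMI in batch 1 or 2, whose gene symbols differ in part from those of batch 3. For 9 of these the non-helpless pool was the lowest of all 7 microglial pools, and for 2 the recovered pool was the highest. Tgfb1 stood at 250 CPM in chronic non-helpless, 316 in acute non-helpless, 493 in non-shocked batch 2, 635 in recovered, 664 in acute helpless, 691 in non-recovered and 733 CPM in non-shocked batch 3 microglia. The counting intervals of recovered, acute helpless and non-recovered microglia overlapped in that order. Cebpa followed with 59.6, 90.9, 120, 238, 391, 401 and 268 CPM in the same order of pools, and Cebpb with 26.3, 40.6, 80.3, 100.2, 510, 296 and 177 CPM. Jund was at 84.0 CPM in the chronic non-helpless pool and from 228 to 418 CPM in the other 6. Of 276 higher genes seen in batch 1 or 2, non-shocked microglia of batch 3 lay above the midpoint of the 2 compared pools, taken as the mean of log2(CPM + 2), for 223 (80.8%), non-recovered for 219 (79.3%), acute helpless for 203 (73.6%), non-shocked batch 2 for 187 (67.8%) and acute non-helpless microglia for 120 (43.5%). Over all 6772 genes so compared, these shares were 46.5%, 53.8%, 36.6%, 49.1% and 39.6%. The genes were chosen on the 2 pools compared, and acute libraries lie in other batches, so these shares are a description.

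For the lower genes, the order of the pools was less uniform. Of the 14 lowest ranked genes with a UMI in batch 1 or 2, the recovered pool was the lowest of 7 for 7 genes and the non-helpless pool the highest for 4. Of 213 lower genes seen in batch 1 or 2, non-recovered microglia lay above the midpoint of the 2 compared pools for 72.3%, non-shocked batch 2 for 66.2%, non-shocked batch 3 for 62.9%, acute non-helpless for 46.9% and acute helpless for 30.5%. In the same order, these shares were 53.8%, 49.1%, 46.5%, 39.6% and 36.6% over all 6772 genes so compared. The lower genes too were chosen on the 2 pools compared, so their shares are a description. Apoe was lowest in recovered microglia at 167 CPM, followed by 290 CPM in non-recovered, 374 in acute non-helpless, 376 in chronic non-helpless, 517 in acute helpless, 525 in non-shocked batch 3 and 527 CPM in non-shocked batch 2 microglia. Lpl was at 20.3 CPM in recovered and from 32.9 to 62.4 CPM in the other pools. Atf3, in contrast, was highest in chronic non-helpless microglia and lower in acute helpless (25.1 CPM) and non-shocked batch 2 microglia (28.7 CPM) than in the recovered pool.

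**Figure D5:**
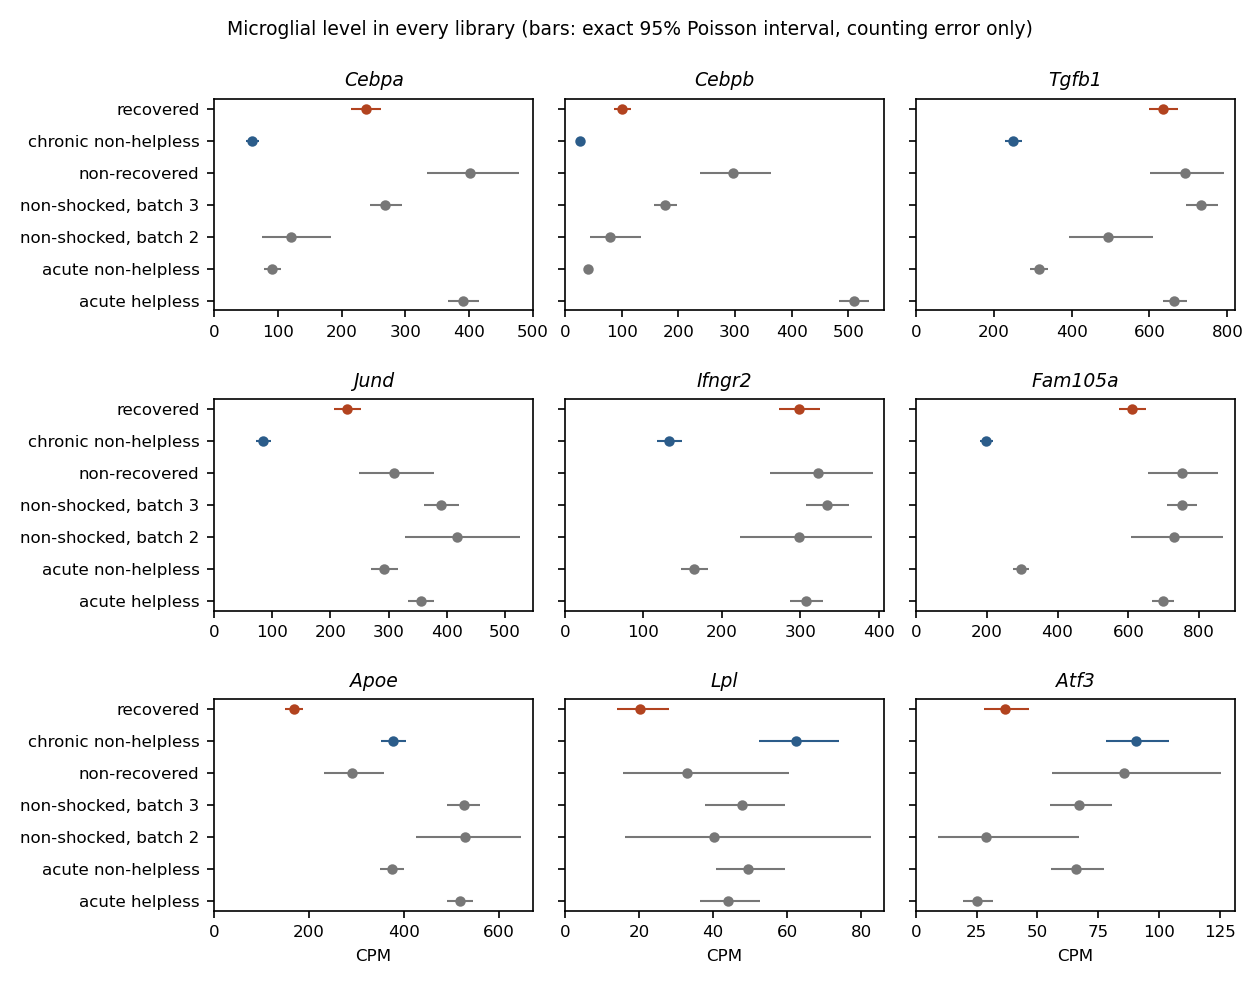
The level of 9 genes in CPM is drawn for the microglia of every library, with non-shocked cells divided by batch and bars giving the exact 95% Poisson interval of the count. Chronic non-helpless microglia (blue) have the lowest Cebpa, Cebpb, Tgfb1, Jund, Ifngr2 and Fam105a, and recovered microglia (red) the lowest Apoe and Lpl.

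Tgfb1, Cebpa and Jund were also higher in the barcodes of the recovered library that were not microglia. In the 106 recovered and 48 non-helpless barcodes of other cell types, Tgfb1 stood at 539 and 244 CPM (2.21-fold, 1.83 to 2.69), Cebpa at 168 and 59.0 CPM (2.84-fold, 1.94 to 4.30) and Jund at 297 and 84.6 CPM (3.51-fold, 2.56 to 4.91). Most of these barcodes also carried microglial RNA, since only 23 and 17 of them had under 0.5% microglial marker UMIs. In those, Tgfb1 had 30 and 18 UMIs (195 and 147 CPM), Jund 22 and 6 (143 and 49.1 CPM) and Cebpa 6 and 2, whereas Cebpb had 0 and 8 (0 and 65.5 CPM). Over all barcodes of other cell types, Mrps24 (4.68-fold), Plbd2 (4.38), Fnta (4.24), Dynll2 (4.16), Fam105a (3.29) and Cebpb (3.19) were higher too. Of the ranked higher genes, only Ccnb1ip1 was lower there, with a ratio of 0.79 (0.49 to 1.28). Rtp4 (0.63, 0.41 to 0.97), Sp100 (0.63, 0.50 to 0.80) and Phf11d (0.72, 0.40 to 1.37) were among the higher list members that were lower there. Apoe was lower in the recovered library here too, at 469 CPM in recovered and 1352 CPM in non-helpless barcodes of other types. In those with under 0.5% microglial marker UMIs, Apoe stood at 331 and 385 CPM. What the library itself contributed to these ratios was not tested.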

How the data were processed

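Live CD45-positive cells sorted from mouse hippocampus were profiled with a 10x Genomics 5' kit in 6 libraries, 1 for each group. The authors deposited raw UMI counts per gene and cell, and a cell table with library, batch, cluster and cell type, per the file headers. The submitters' processing notes name Cell Ranger 2.2.0, Seurat 2.3.4 and, as genome build, mm10. The sources used here do not say how the authors filtered cells, built clusters or assigned cell types. Normalized and merged matrices were not used here.

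Counts were summed over the microglia of each library and scaled to CPM (numpy 2.4.6, pandas 2.3.3). Ratios have exact conditional intervals, levels exact Poisson intervals and shares exact Clopper-Pearson intervals, from scipy 1.17.1, at 95% and for counting error only. In log2 ratios, a count under 3 in the lower library was set to 3. Genes reaching 20 CPM in either library were used, and 1.5-fold was the size called. Ratio and interval code was tested on simulated data. Named genes were the 15 highest and 15 lowest ratios where the higher library held 50 CPM and 30 UMIs or more. Members of the 28 lists past 1.5-fold and the leading members of each list were also named. The ranking omitted Xist, Y-linked, mitochondrially encoded, ribosomal protein, haemoglobin, antigen receptor and unnamed genes. Cebpd, Cebpg, Cebpz and the genes shown by promoter were chosen after their values were seen. Members and lists were chosen with earlier results of these data known. Doublets were kept, and Scrublet (scanpy 1.11.5, 20 components) called 23 of 478 recovered and 3 of 547 non-helpless cells, of which 20 and 3 were microglia. Alternatives were other scalings, cell filters, expression minima and folds, thinning to 1000 UMIs and the shared deposited cluster. A few list members are not reported here.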

Additional observations from a re-analysis of the deposited data

How the results depend on the processing

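The count of genes at least 1.5-fold higher in recovered microglia (280) and lower (222) depended on how many UMIs and cells were kept. Thinning to 1000 UMIs per cell gave 815 and 1119 and raised the median absolute log2 difference from 0.17 to 0.32. Leaving out barcodes with 2 UMIs of other immune markers or under 0.5% microglial markers, which removed 251 of 372 and 328 of 499 cells, gave 774 and 899 and a median of 0.29. At least 2 UMIs of macrophage, B cell or neutrophil markers were held by 146, 133 and 117 recovered and 207, 164 and 179 non-helpless microglia. In recovered microglia, Stab1 (521 of 531), Ighm (453 of 590) and Csf3r (441 of 450) supplied most UMIs of these 3 lists. Whether the cells left out were mixed barcodes was not tested. Within deposited cluster 2, 446 genes were higher, and with each cell weighted equally 373 were lower. A minimum of 5 CPM gave 685 and 723, a minimum of 50 CPM gave 108 and 42, and a 2-fold limit gave 82 and 40. Of the 280 higher and 222 lower genes, 266 and 199 kept their direction after thinning. Within cluster 2, 280 and 213 kept it, and without each gene's highest barcode 279 and 216 did. Among the named genes at least 1.5-fold apart over all microglia, Mcm6 (-0.56) and Lgals3 (0.024) turned direction after thinning, as log2 ratios. Ccl3 turned within cluster 2 (1.54) and without its highest barcode (0.15). Named genes that turned under the marker filter were Ccl2 (-2.03), Mcm7 (-0.44), Mcm6 (-0.18) and S100a9 (0.56). S100a9 is itself a neutrophil marker, so that filter left out barcodes with 2 of its UMIs by construction. With 1 S100a9 UMI in all recovered microglia, its turn compares counts near the floor. Ccl4, which was near equal over all microglia, was 4.48-fold higher within cluster 2. Fewer cells and UMIs leave wider counting error by construction. The cause of the other shifts was not tested. Of 417 list medians recomputed, 413 stayed within their counting spread, and some near 0 changed sign, such as NF-kB (-0.077 to 0.053) and chromatin genes (-0.060 to 0.092) within cluster 2. Leaving out each gene's highest barcode, or the 3 and 6 barcodes with 20 UMIs of neutrophil, lymphocyte or choroid plexus markers, was chosen after seeing the data. No paired analysis was possible because each group had 1 library, and no library could be left out for the same reason. With 1 library a side, the depth limits single genes, and nothing measures the spread between mice.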
